A study of Macaca fascicularis with 24 samples.

Results

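The 7 genes described here are presumed to encode the mitochondrial DNA-encoded subunits of respiratory complex I. They were selected by Ensembl ID out of 29324 genes counted in brain punches of cynomolgus macaques (Macaca fascicularis), and all 7 were present in every file. The files give IDs without symbols. By place in a run of 13 consecutive IDs, which has the length of the protein-coding set of a mammalian mitochondrial genome, ENSMFAG00000046415 was inferred to be ND1, ENSMFAG00000046416 ND2, ENSMFAG00000046422 ND3, ENSMFAG00000046423 ND4L, ENSMFAG00000046424 ND4, ENSMFAG00000046425 ND5 and ENSMFAG00000046426 ND6. These names are an inference from mitochondrial gene order and are used as such throughout. The RefSeq gene list at hand holds 0 Ensembl IDs and 0 mitochondrial genes, so the inferred names could not be checked against it. No sequence of these genes was used here.

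The study compared 4 macaques treated with a divalent siRNA against Huntingtin with 4 non-treated macaques. Each animal gave 3 numbered brain punches, and each punch was sequenced as its own poly-A selected, stranded library, for 24 libraries. The labels name no vehicle or control siRNA for the non-treated animals, no dose, no time after dosing, no age and no brain region. Silencing of the target and the dosing procedure therefore cannot be told apart in the contrast. The level of Huntingtin was not analysed here, so the treatment labels were not checked by it.

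Complex I is the entry point of electrons from NADH into the respiratory chain, and it pumps protons across the inner mitochondrial membrane. Most of its subunits come from nuclear genes, while the ND subunits are core parts of its membrane arm and are made inside the mitochondrion. In mammals the mitochondrial genome is transcribed as long precursors from both strands, which are then cut into single messages. ND6 is the exception among the ND genes in lying on the other strand, and its message is known to lack a stable poly-A tail. ND4L and ND4 are kept on a shared message with overlapping reading frames. Neurons depend heavily on this chain for ATP, and brain tissue is rich in these transcripts.

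The 13 IDs of the run stood out from their neighbours in read number. ENSMFAG00000046414, just before the run, had 83 reads in all 24 libraries together, and ENSMFAG00000046428, just after it, had 0. Of the 13 genes, 10 were among the 13 most abundant genes of the series. The set was proposed because of this abundance, and after a lower share of abundant transcripts in treated animals and the fall of presumed ND5 had been seen in these data. The treatment values below are thus not independent of how the set came about.

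Libraries held 6761946 to 15741415 counted reads. Punch 3 of non-treated animal 1 stood apart, with reads in 11412 genes against 15946 to 17568 in the other libraries. Its part in the results was not tested beyond leaving it out. These are bulk samples, in which fewer cells of a type and less RNA per cell cannot be told apart.

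The 7 genes together held 12.8% of all counted reads, and 63.2% of these reads lay in presumed ND1 and ND2. Presumed ND2 (4.12% of all reads), ND1 (3.95%), ND4 (2.15%) and ND5 (1.37%) each held over 1%. Presumed ND3 held 0.932% and presumed ND4L 0.226%. Presumed ND6 was the scarcest at 0.0178%, ranked 626 among all genes, with 548 to 4146 reads per library. These shares count reads and grow with transcript length, and no lengths were used here, so they give no order of RNA abundance per length. How reads that also match nuclear copies of mitochondrial DNA, or the overlap of presumed ND4L and ND4, were counted is not given in the sources used here. The strand setting of the counting is not given either, so reads from presumed ND6 and from the opposite strand cannot be told apart.

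In treated animals a smaller share of the reads came from the set. In non-treated animals 1 to 4 the 7 genes held 16.9%, 12.8%, 15.4% and 13.2% of reads, a mean of 14.6% ± 1.94 (SD, n = 4). In treated animals 1 to 4 they held 14.4%, 8.09%, 10.5% and 10.4%, a mean of 10.8% ± 2.61 (SD, n = 4). Treated animal 1 lay within the non-treated range, and the other 3 treated animals lay below it. The difference of the means was -3.75 percentage points, larger than the SD of either group. It is given without a test, since the set was proposed with this difference in view.

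The libraries of 2 animals set the extremes of this share. Punch 3 of non-treated animal 1 held 24.9% of its reads in the set (95% Wilson interval 24.9% to 25.0%), against 12.7% and 16.3% in punches 1 and 2 of the same animal. Punch 1 of treated animal 1 held 19.3% in the set (95% Wilson interval 19.3% to 19.4%), against 10.3% and 11.3% in its other punches. These intervals cover counting error only. The remaining non-treated libraries ranged from 11.9% to 16.6% and the remaining treated libraries from 7.65% to 11.3%, so without punch 1 of treated animal 1 the libraries of the groups did not overlap. Leaving out both libraries gave a difference between animals of -3.98 percentage points.

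**Figure D1:**
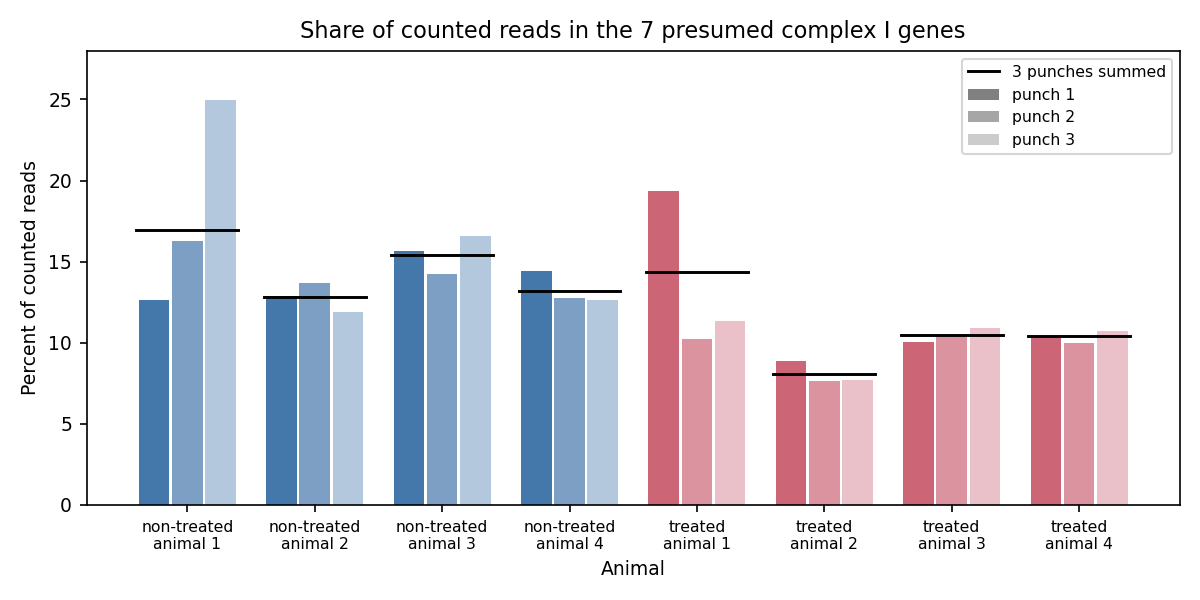
Percent of counted reads in the 7 presumed complex I genes for each punch (bars, 3 shades) and for the 3 punches of an animal summed (black lines), in 4 non-treated (blue) and 4 treated (red) animals. Punch 3 of non-treated animal 1 at 24.9% and punch 1 of treated animal 1 at 19.3% rise above the other bars.

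The 6 other genes of the run, inferred to be COX1, COX2, ATP8, ATP6, COX3 and CYTB of complexes III, IV and V, held 24.1% ± 3.32 of reads in non-treated and 18.1% ± 3.06 in treated animals (SD, n = 4 each). The ratio of the 7 complex I genes to these 6 was 0.606 ± 0.0284 in non-treated and 0.597 ± 0.0713 in treated animals (SD, n = 4 each). The ranges of this ratio overlapped, at 0.587 to 0.648 and 0.492 to 0.648. The smaller share in treated animals was thus seen in both parts of the run.

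Each gene was then compared between the groups in a fit over 14892 genes. Levels are CPM (a gene's reads over a common library total) after TMM, a scaling that makes libraries comparable when a few genes take many reads. A call needed a Benjamini-Hochberg adjusted p under 0.05 over all genes in edgeR's quasi-likelihood test. All 7 genes passed the filter on low counts. Of the 7, 1 was called, lower in treated animals, and 0 were called higher, where 0.0269% of all tested genes were called lower and 0.00672% higher. The fitted log2 fold change was negative for all 7, from -1.54 to -0.55 with a median of -0.64, against a median of -0.01 over all genes tested, of which 52.1% were negative. In punch 1 alone 5 of the 7 were negative, with a median of -0.06: presumed ND3 and ND4 were at 0.037 and 0.051, ND1 at -0.04 and ND2 at -0.06. Without the punch 1 library of treated animal 1 all 7 were negative there, with a median of -0.81. At an unadjusted p under 0.05, 4 of the 7 were lower in treated animals, where 5.4% of all tested genes were. Non-treated and treated animals were without overlap in 2 of the 7, presumed ND5 and ND6, where 3.2% of all tested genes were lower and 2.12% higher without overlap. The 7 genes share their transcripts' origin and their libraries, so they are not independent counts.

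Presumed ND5, a proton-pumping subunit at the far end of the membrane arm, was the 1 gene of the 7 that was called. It was at 25587, 16442, 23505 and 19685 CPM in non-treated animals 1 to 4. In treated animals 1 to 4 it was at 8800.2, 5258, 7889 and 7375 CPM. Every treated animal was below every non-treated animal, with a gap from 8800.2 to 16442 CPM. The mean fell from 21305 ± 4060.0 to 7330.5 ± 1502 CPM (SD, n = 4 each), 65.6% lower. The log2 fold change was -1.54 (SE 0.186, 95% interval -1.95 to -1.13, edgeR adjusted p = 0.0244). This fall had been seen in these data before the set was proposed. The p and the calls of presumed ND5, here and in other settings, are therefore a description and no independent support. Of the 12 treated libraries 11 lay below all 12 non-treated libraries, and the exception was punch 1 of treated animal 1. This was not particular to presumed ND5: the count was 11 for presumed ND4 and 10 for ND2 and ND3. It was 7 for presumed ND6 and 4 for ND1 and ND4L. Punches of an animal are not independent, and the count was not made over all genes.

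The call of presumed ND5 was lost without non-treated animal 1, 3 or 4 or treated animal 2 or 3, with edgeR adjusted p of 0.0840, 0.0615, 0.101, 0.0714 and 0.0969, while its log2 fold change stayed between -1.64 and -1.39 whichever animal was left out. Without both libraries that stand apart it was -1.57 (edgeR adjusted p = 0.00303), and it was the 1 member called, against 0.141% of all tested genes. In that setting 4 of the 6 other genes of the run were called too, all lower in treated animals: presumed COX1 (-1.19, edgeR adjusted p = 0.000556), CYTB (-1.05, 0.00303), ATP6 (-0.69, 0.0277) and COX3 (-0.53, 0.04997). In single punches it was -1.10 in punch 1 (adjusted p = 0.740), -1.60 in punch 2 (adjusted p = 0.00389, 0.114% of all genes called) and -2.49 in punch 3 (adjusted p = 0.798), and without the library that stood apart it was -1.51 in punch 1 (adjusted p = 0.0249, 0.0299% of all genes called) and -1.53 in punch 3 (adjusted p = 0.206).

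Presumed ND6, a membrane subunit encoded on the opposite strand, had 421, 193, 177 and 194 CPM in non-treated animals 1 to 4. In treated animals 1 to 4 it had 95.9, 69.1, 162 and 167 CPM. The groups did not overlap, but treated animals 3 and 4 were close to the lowest non-treated animals, and non-treated animal 1 was far above the others. The means were 246 ± 117 and 123 ± 48.6 CPM (SD, n = 4 each), and the log2 fold change was -0.99 (SE 0.322, edgeR adjusted p = 0.367). Without non-treated animal 1, which holds the library with few genes, it was -0.61 (edgeR adjusted p = 0.661).

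Presumed ND4L, a small membrane subunit, had 4156, 1711, 4107 and 2412 CPM in non-treated animals 1 to 4. It had 1954, 949.6, 1730.0 and 1686 CPM in treated animals 1 to 4. Non-treated animal 2 lay inside the treated range, and the other 3 non-treated animals lay above it. The log2 fold change was -0.97 (SE 0.286, edgeR adjusted p = 0.315).

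Presumed ND4, which shares its message with ND4L, had 33329.6, 23423, 27179.6 and 22651 CPM in non-treated animals 1 to 4. In treated animals 1 to 4 it had 31072, 11239, 13725 and 15300.0 CPM. Treated animal 1 reached the non-treated range, and the other 3 treated animals were below all non-treated animals. The log2 fold change was -0.58 (SE 0.279, edgeR adjusted p = 0.534), and without treated animal 1 it was -0.99 (edgeR adjusted p = 0.0420).

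Presumed ND2, another proton-pumping subunit, gave the same arrangement. It was at 61032, 41607, 55189 and 49192 CPM in non-treated animals 1 to 4, and at 55671, 22451, 27904 and 26522 CPM in treated animals 1 to 4. The log2 fold change was -0.64 (SE 0.26, edgeR adjusted p = 0.470), and without treated animal 1 it was -1.02 (edgeR adjusted p = 0.0334). Without treated animal 1, 3 of the 7 genes were called, presumed ND2, ND4 and ND5, where 0.285% of all tested genes were. With all animals the calls of presumed ND2 and ND4 were not made.

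Presumed ND3, a small subunit near the quinone site, ranged from 9260 to 16512 CPM in non-treated and from 5354 to 12767 CPM in treated animals. The fitted log2 difference was -0.56 (SE 0.27, edgeR adjusted p = 0.540). Presumed ND1, which lines the quinone channel, ranged from 33925 to 72816 CPM and from 22697 to 43111 CPM. The fitted log2 difference was -0.55 (SE 0.254, edgeR adjusted p = 0.522). In both genes the groups overlapped. Without non-treated animal 1 the values were -0.33 for presumed ND3 and -0.28 for presumed ND1, and without treated animal 1 they were -0.90 and -0.71. The 95% intervals, -1.15 to 0.03 for presumed ND3 and -1.11 to 0.01 for presumed ND1, include both no difference and a difference of over 2-fold, so these data do not show that the levels were alike.

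**Figure D2:**
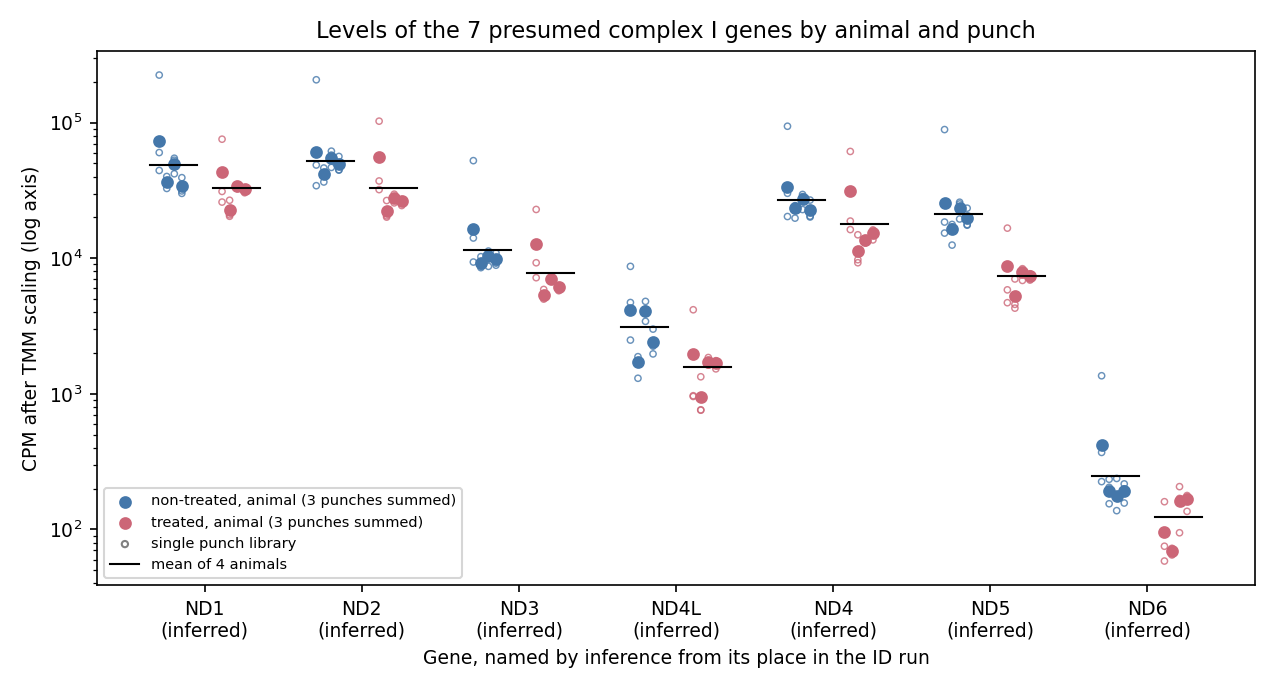
CPM after TMM scaling (log axis) of the 7 genes in single punch libraries (open circles), in animals (filled circles, 3 punches summed) and as means of 4 animals (black lines), non-treated in blue and treated in red. For presumed ND5 the treated animals span 5258 to 8800.2 CPM and the non-treated animals 16442 to 25587 CPM.

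Of the 6 other genes of the run, 0 were called by edgeR (0.0336% of all tested genes were called in either direction). At an unadjusted p under 0.05, 3 of the 6 were lower in treated animals and 0 higher, where 5.4% of all tested genes were lower. DESeq2 called 2 of the 6, presumed COX1 and CYTB, where it called 1.03% of all genes, and of the 7 complex I genes it called presumed ND5 (adjusted p = 5.39e-14). Limma-voom called 0.0403% of all genes, and presumed ND5 alone of the 13. With edgeR, presumed COX1 and CYTB were also called in punch 2 alone, without punch 1 of treated animal 1 and without treated animal 1. In these settings 0.114%, 0.121% and 0.285% of all tested genes were called. The median log2 fold change of the 6 was -0.79. In 1 of the 6, presumed COX1, the groups did not overlap, at 34012 to 53679 CPM in non-treated and 15158 to 27750 CPM in treated animals. Of all tested genes 3.2% were lower in treated animals without overlap. Presumed COX1, the catalytic core of complex IV, had the most negative value of the 6 at -1.09 (SE 0.214, edgeR adjusted p = 0.191), and presumed COX3, another core subunit of complex IV, the least negative at -0.46 (SE 0.221, edgeR adjusted p = 0.540).

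The median of the 7 was -0.63 with RLE and -0.63 with upper-quartile scaling, close to the -0.64 with TMM. With totals as the only scaling, the fitted values of all genes were shifted: their median went from -0.01 to 0.27 in log2. All 7 genes stayed negative under it, with a median of -0.40, and presumed ND5 was the 1 called at -1.26 (edgeR adjusted p = 0.00486), where 0.0537% of all tested genes were. When the 13 genes of the run were kept out of the scaling, the median of the 7 was -0.64, as with all genes.

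**Figure D3:**
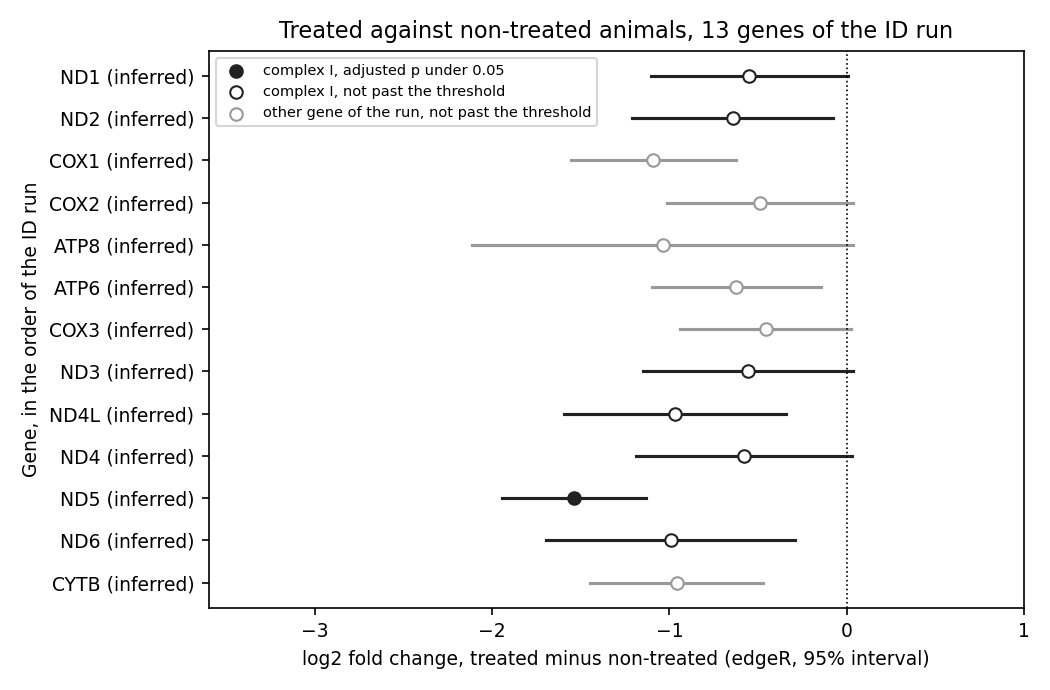
Log2 fold change, treated minus non-treated, with 95% interval from edgeR, for the 13 genes of the ID run in order (complex I black, others grey; filled where the adjusted p was under 0.05). The point estimates lie left of 0, and presumed ND5 at -1.54 is the filled point.

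Ratios between genes of the same library do not depend on library scaling, so the make-up of the set was described next. Presumed ND5 made up 11.96%, 12.7%, 13.8% and 14.3% of the reads of the 7 genes in non-treated animals 1 to 4, and 5.73%, 7.73%, 8.55% and 8.23% in treated animals 1 to 4. The groups did not overlap, with means of 13.2% ± 1.05 and 7.56% ± 1.27 (SD, n = 4 each). In this measure each of the other 6 had overlapping groups. Presumed ND1 was at 29.1% ± 3.88 in non-treated and 33.6% ± 3.94 in treated animals, and presumed ND2 at 32.2% ± 2.92 and 32.3% ± 3.04 (SD, n = 4 each). Shares of a sum are bound to each other, so a smaller part for presumed ND5 leaves larger parts for the rest.

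**Figure D4:**
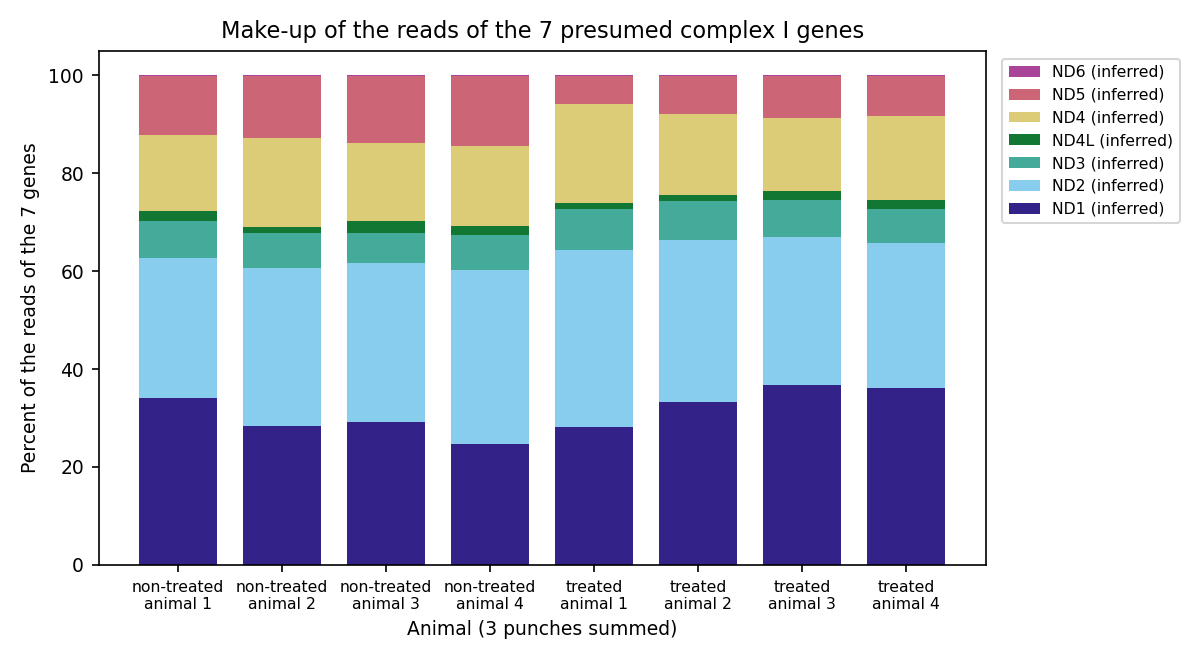
Percent of the reads of the 7 genes that each gene held, per animal with 3 punches summed; each bar adds up to the whole set. The presumed ND5 segment spans 11.96% to 14.3% in non-treated and 5.73% to 8.55% in treated animals.

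Of 6 read ratios chosen, 3 contain presumed ND5. Its fall was already known, so these 3 are given as a description with no test. The ratio of presumed ND5 to presumed ND1, genes near opposite ends of the same long precursor, was 0.351, 0.448, 0.472 and 0.580 in non-treated animals 1 to 4. It was 0.204, 0.232, 0.233 and 0.228 in treated animals 1 to 4. The treated animals lay close together and below every non-treated animal. The log2 difference was -1.02, a 2.03-fold lower ratio in treated animals. The groups did not overlap in single punches either, at 0.307 to 0.596 in the 12 non-treated and 0.181 to 0.263 in the 12 treated libraries, the libraries that stood apart included. Punches of an animal are not independent, so this adds no further animals.

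The ratio of presumed ND4 to presumed ND5, neighbours in gene order, was 1.30, 1.42, 1.16 and 1.15 in non-treated animals 1 to 4. It was 3.53, 2.14, 1.74 and 2.07 in treated animals 1 to 4, all above the non-treated animals. The log2 difference was 0.87. Presumed ND6 to ND5, neighbours on opposite strands, was 0.00752 to 0.0164 in non-treated and 0.0109 to 0.0226 in treated animals, which overlap (log2 difference 0.56). A log2 ratio used a pseudocount of 0.5 reads.

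The 3 ratios without presumed ND5 overlapped between the groups. Presumed ND1 to ND2 was 0.690 to 1.19 in non-treated and 0.774 to 1.22 in treated animals (log2 difference 0.21, exact permutation p = 0.400). Presumed ND3 to ND4L was 2.53 to 5.41 and 3.64 to 6.53 (log2 difference 0.32, exact permutation p = 0.343). The ratio of presumed ND4L to ND4, which would share a message, was 0.0730 to 0.151 and 0.0629 to 0.126 (log2 difference -0.25, exact permutation p = 0.486). The smallest p that 4 against 4 animals allow is 0.0286, and a p that misses the threshold does not show equal ratios.

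Among all 21 pairs within the set, 5 were without overlap between the groups, and each of the 5 has presumed ND5 in it. The sixth pair with presumed ND5, that with presumed ND6, overlapped. The background for this is high: against every other tested gene, the ratio of presumed ND5 was without overlap in 85.4% of 14891 cases, and those of the other 6 genes in 9.07%. Of the 15 pairs without presumed ND5, 0 were without overlap. Against the 6 other genes of the run, presumed ND5 was without overlap in 4, and it overlapped in its ratios to presumed COX1 and ATP8, with log2 differences of -0.44 and -0.52.

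In each of the 6 ratios the pooled SD between punches of an animal was smaller than that between animals of a group. For presumed ND1 to ND2 the SD of the log2 ratio was 0.0700 between punches of an animal and 0.316 between animals of a group. The 3 punches of non-treated animal 4 gave 0.674 to 0.699, and those of non-treated animal 1 gave 1.08 to 1.30. All 3 punches of treated animal 1 (0.736, 0.809 and 0.837) lay below all 3 of treated animal 4 (1.23, 1.24 and 1.20). The SDs within and between animals were closer to each other in the other ratios: presumed ND4L to ND4 (0.181 and 0.444), ND4 to ND5 (0.143 and 0.327), ND5 to ND1 (0.137 and 0.220), ND6 to ND5 (0.304 and 0.490) and ND3 to ND4L (0.291 and 0.427). Presumed ND3 to ND4L ran from 2.99 to 6.02 over the punches of non-treated animal 1, about the spread between non-treated animals, and from 5.49 to 9.56 in treated animal 1. The levels themselves were less steady across punches, with SDs of log2 CPM within an animal of 0.546 for presumed ND1 to 0.638 for presumed ND5. The 2 libraries that stand apart enter these SDs.

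**Figure D5:**
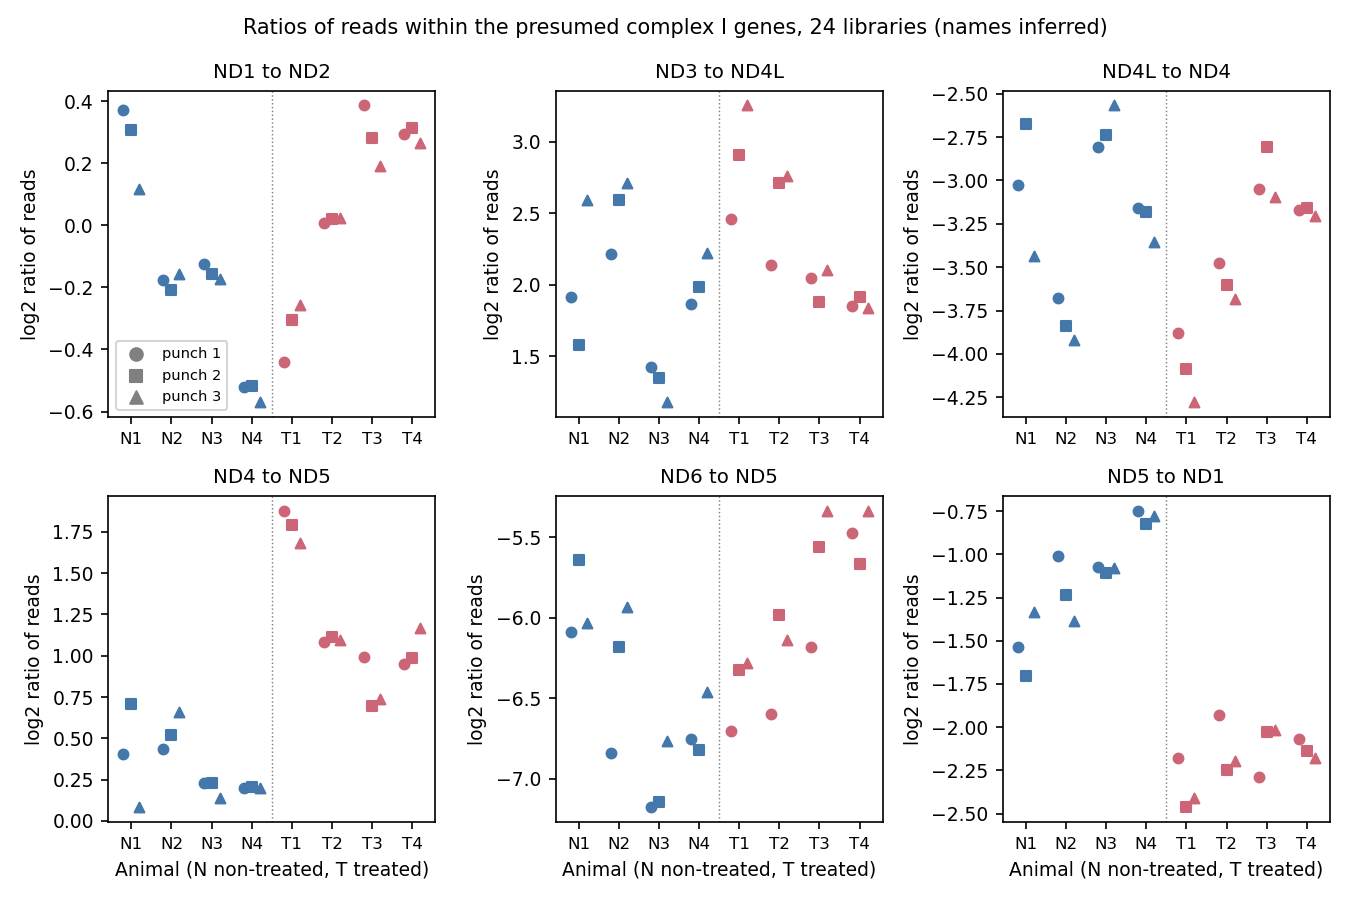
Log2 ratio of reads for 6 pairs of the presumed complex I genes in all 24 libraries, by animal (N non-treated in blue, T treated in red) with punches 1 to 3 as circles, squares and triangles. The punches of an animal lie closest together for ND1 to ND2, and for ND5 to ND1 the treated libraries all lie below the non-treated ones.

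Punch numbers were compared within animals, since the labels number the punches without saying where each was taken. Of 14054 genes tested with animal as a term, 1.1% were called by edgeR's F-test, and of the 7 genes 0 were, by edgeR or by limma-voom, which called 2.25% of all genes. In edgeR none of the 7 had an unadjusted p under 0.05 (0 of 7, against 22.2% of all tested genes). This 0 depends on the libraries and the filter used: without non-treated animal 1, 4 of the 7 had an unadjusted p under 0.05 (lowest edgeR adjusted p = 0.107). The count was 1 without punch 3 of that animal, without treated animal 1 and with no filter. The share of all genes under this unadjusted threshold was not kept for these settings. In the same order, edgeR called 1.89%, 9.31%, 0.00702% and 1.36% of all tested genes at the adjusted threshold, and 0 of the 7. With all libraries and the filter, the edgeR adjusted p ran from 0.351 for presumed ND6 to 0.600 for presumed ND2. The log2 difference of punch 2 from punch 1 was negative for all 7 genes, from -0.45 in presumed ND4 to -0.14 in presumed ND6. That of punch 3 from punch 1 ran from -0.30 in presumed ND4L to 0.38 in presumed ND6, and punch 3 holds the library with few genes. The treatment effect did not differ detectably between punch numbers for any of the 7 (edgeR F-test, unadjusted p of 0.136 to 0.217, 0 of the 7 under 0.05, where 1.98% of all tested genes were), and of all tested genes 0 were called by edgeR and 0 by limma-voom. The point estimates of this difference ran from -1.04 to -0.93 on the log2 scale for punch 3 against punch 1. For presumed ND4L, the 1 gene for which this estimate was kept in each setting, it was -0.99 with all libraries, -0.60 without punch 3 of non-treated animal 1 and -0.08 without that library and punch 1 of treated animal 1.

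Other genes with a like pattern were sought by Pearson's r of log2 CPM over the 8 animals, as a description without a test. Against the mean of the 6 genes other than presumed ND6, the genes outside the run with the highest r were ENSMFAG00000020465 (r = 0.985, mean 1580.2 CPM), ENSMFAG00000001918 (r = 0.980, mean 0.576 CPM) and ENSMFAG00000046283 (r = 0.971, mean 19.9 CPM). Over the 24 libraries their r was 0.969, 0.729 and 0.557, so the abundant ENSMFAG00000020465 alone of the 3 kept an r above 0.9. The other 6 genes of the run had r of 0.901 to 0.976 over the 8 animals. Presumed ND6 followed that mean less closely, with r = 0.728 over 8 animals and 0.834 over 24 libraries. Against presumed ND6 itself the highest were ENSMFAG00000006705 (r = 0.977, mean 0.440 CPM), ENSMFAG00000003189 (r = 0.971) and ENSMFAG00000037248 (r = 0.970), and the latter pair fell to r = 0.274 and 0.313 over 24 libraries. All points share the libraries' depth and scaling and the difference between the groups.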

How the data were processed

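RNA from 24 brain punches of 8 macaques was sequenced as poly-A selected stranded libraries, per the labels' protocols. The authors deposited unnormalized counts per gene, made with STAR 2.5.3a and HTSeq 0.10.0 per the submitters' processing notes. Genome build, annotation, strand setting and treatment of multiply mapped reads: not given in the sources used here. The members, lists and tests were chosen with earlier results of these data known. The text names the 7 genes and the 6 others of the run, and the 3 genes outside the run most alike in pattern to the 6-gene mean and to presumed ND6.

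Counts of an animal's 3 punches were summed, with 30822287 to 36878649 reads per animal, and the animal was the replicate. Genes were filtered with filterByExpr (minimum count 10) and scaled by TMM. Groups were compared with the quasi-likelihood test of edgeR 4.0.16 (R 4.3.3) with Benjamini-Hochberg adjustment over all genes tested. DESeq2 1.42.0 and limma-voom (limma 3.58.1) were alternatives. Punch numbers were compared over 24 libraries with animal as a term. Of 6 ratios, the 3 without presumed ND5 were tested with an exact two-sided permutation test over 70 assignments of animals, and the 3 with it are described. The fits were tested on simulated data. No pair of the 276 library pairs was alike within sampling noise (smallest chi-square per degree of freedom 3.92). Levels per coding length were not analysed here, since no lengths or proteins were at hand. Other settings were other scalings and filters, single punches, left-out libraries and animals, and a replicate block.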

Additional observations from a re-analysis of the deposited data

Results flagged for a closer look

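Among 48 groups of 4 values examined for a value far from the others, 5 had one, where chance gives about 2.4. In presumed ND2, treated animal 1 had 55671 CPM, while the other treated animals had 22451 to 27904 CPM. In presumed ND3, non-treated animal 1 had 16512 CPM, while the other non-treated animals had 9260 to 10377 CPM. In presumed ND6, non-treated animal 1 had 421 CPM, while the others had 177 to 194 CPM. In punch 1, treated animal 1 held 19.3% of its reads in the 7 genes, while the other treated animals held 8.86% to 10.4%. In punch 2, treated animal 2 held 7.65%, below the 9.98% to 10.4% of the other treated animals.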

How the results depend on the processing

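The log2 fold change of presumed ND5 was negative in all 26 alternatives, from -2.49 to -1.10, and it was called in 18. The call was lost in punch 1 alone (-1.10), punch 3 alone (-2.49) and punch 3 alone without the library of non-treated animal 1 (-1.53), each with 0 of the 7 genes called. It was also lost without non-treated animal 1, 3 or 4 or treated animal 2 or 3, again with 0 of the 7 called. The single-punch settings that leave out a library were chosen after seeing the data. Leaving out an animal gave -1.64 to -1.39 for presumed ND5, -1.02 to -0.47 for presumed ND2 and -0.99 to -0.39 for presumed ND4, and 0 to 3 genes called. Presumed ND2 and ND4 were called only without treated animal 1. In punch 1 alone the sign turned for presumed ND3 (0.037), ND4 (0.051), COX2 (0.067) and COX3 (0.087), with no call. Without the library of treated animal 1 these genes were at -0.71, -0.81, -0.48 and -0.53 in punch 1. Why that library differed was not tested. The number of genes called in all was 5 in edgeR, 153 in DESeq2, 15 without a filter, 43 without treated animal 1 and 21 without both libraries that stand apart. For punch numbers it was 154, and 0 to 1331 in the alternatives, with 0 of the 7 called in each of 14 alternatives.

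The log2 difference between the groups in the ratio of presumed ND4 to ND5 was 0.73 in punch 2 alone and 0.66 to 1.00 with an animal left out. That in the ratio of presumed ND5 to ND1 was -1.15 to -0.91 with an animal left out. The 3 ratios without presumed ND5 kept their direction and did not pass the threshold in the 16 alternatives run for each. The difference in the share of reads was -4.93 to -2.83 percentage points in 12 alternatives.

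The labels number animals in both groups without stating a pairing. Same-numbered animals had correlations of 0.01, 0.02, 0.22 and -0.14, and 1 of 4 matched best with its own number. These values do not settle whether the numbers pair the animals. With a replicate block, presumed ND5 was at -1.54 (edgeR adjusted p = 0.00448) and 2 genes were called in all. The SE of presumed ND5 was 0.0851 with the block and 0.186 without, and that of presumed ND3 0.0958 and 0.270. Among the 7 genes the SE was larger with the block for presumed ND6 alone, at 0.338 against 0.322. The log2 differences in the ratios of presumed ND4 to ND5 (0.87) and ND5 to ND1 (-1.02) stay the same over same-numbered pairs by arithmetic. They are therefore no check of these ratios. Of the 3 genes most alike in pattern to the 6-gene mean, 1 was shared under Spearman's rho and 1 over 24 libraries; for presumed ND6 these counts were 1 and 0. Presumed ND6 is the member where depth limits most, with 2534 reads in the animal with fewest.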
